A study of Bos taurus with 60 samples.

Results

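Lysosome and phagosome genes were followed in mammary tissue of Holstein cows across the dry period, the weeks without milking between lactations. The genes were those that the study's pathway table lists, as higher or lower at D3 relative to D-3, under the terms Lysosome or Phagosome of the Kyoto Encyclopedia of Genes and Genomes (KEGG). That table lists 67 symbols, 34 under Lysosome and 38 under Phagosome, with 5 under both. The symbols LAMP1, SORT1, COMP, CD36 and ACTG1 were left out by the rule, and 24 others, among them CTSB and RAB5A, could not be paired with a counted locus in the part of the study's gene tables held here. The other 38 symbols fell on 37 of 25223 counted loci, because FCGR2B and FCGR2A shared 1 locus. Of these loci 22 were listed as higher and 15 as lower at D3. The held part of the gene tables favours genes with a small p for D3 vs. D-3 or D7 vs. D3, so the members were chosen on those contrasts, and D3 vs. D-3 is given below as a description only.

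Biopsies came from 12 multiparous cows, each sampled once in late lactation (D-3) and 4 times after dry-off (D0, the end of milking), on D3, D7, D14 and D25, which gave 60 libraries. From dry-off, 6 cows were cooled with shade, fans and water soakers (CL), and 6 cows had shade alone and were under environmental heat stress (HT). The D-3 biopsies therefore precede both treatments. Visible fat was trimmed from the biopsies, and each library was made from the whole remaining tissue of 1 biopsy of 1 cow, with no pooling. In such bulk tissue, fewer cells of a type and less RNA per cell cannot be told apart.

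Lysosomes are acidic organelles that break down proteins, lipids, glycans and nucleic acids. Their enzymes are carried from the Golgi by mannose 6-phosphate receptors and adaptor protein (AP) complexes, and a vacuolar ATPase pumps in protons. Phagosomes form when receptors on a cell bind a particle, a dead cell or an opsonised microbe and actin wraps the membrane around it. The phagosome then moves on microtubules, receives oxidants from the NADPH oxidase and fuses with endosomes and lysosomes. During involution the mammary epithelium stops secreting, and both epithelial cells and macrophages clear dying cells and residual milk components.

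Library totals ran from 20525083 to 26183990 counts, with a median of 22637562. Levels are in CPM, the count as a share of the library scaled to a common total, on library sizes scaled by the trimmed mean of M-values (TMM). In 5 of the 12 D-3 libraries (cows 7965, 8564 and 8647 in CL, and 8541 and 8713 in HT) the milk protein genes CSN1S1, CSN2 and LALBA took 40.2 to 49.8% of all counts, against 0.19 to 8.03% in the other 7. The D14 library of cow 7965 stood apart, with a summed level of the luminal keratins KRT7 and KRT19 of 6.19 CPM, whereas the median over the D14 libraries was 966 CPM. By the 200 loci that differed most between cows at D-3, D3 and D7, the D14 and D25 libraries labelled 8513 matched cow 8660 (r = 0.93 and 0.942) and those labelled 8660 matched cow 8513 (r = 0.906 and 0.928). Both cows are HT, so HT vs. CL on single days is not affected, but changes within these cows from D7 to D14 or D25 are, and a mean over days would mix the 2 animals. Macrophage markers were represented by MSR1 and AIF1, 2 of a list of 10, with median summed levels of 73.0 CPM at D-3, 73.6 and 72.8 CPM at D3 and D7, and 87.7 and 96.4 CPM at D14 and D25. No marker of the neutrophil, T cell or B cell lists could be paired.

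At D3 relative to D-3, the 22 tested members listed as higher had a median log2 fold change of 0.64 (range 0.24 to 1.36) and the 14 tested members listed as lower had a median of -0.70 (range -2.50 to -0.18). The median over all 14714 loci tested was -0.01. With edgeR's quasi-likelihood test at a false-discovery rate (FDR) of 5%, 19 members were called higher and 10 lower, where 6.03% and 9.04% of all loci were called in those directions. These calls follow from how the members were chosen. Of the cell type markers, KRT7 (log2 fold change 1.31) and the myoepithelial markers KRT5 (1.01), ACTA2 (0.81) and CNN1 (1.10) were also called higher. So was the skeletal muscle marker MYH2 (2.95). The endothelial marker KDR (-0.95) and the milk protein genes CSN1S1 (-4.00), CSN2 (-4.65) and LALBA (-7.14) were called lower. KRT19 (0.52), MYH11 (0.22), MSR1 (0.20), AIF1 (0.27), the fibroblast marker DCN (0.12) and the adipocyte marker ADIPOQ (-0.84) were not called. The part of tissue composition in the members' values was not tested. When scaled by library size alone, the median of all loci moved to 0.35, and the member calls became 19 higher and 2 lower, where 15.1% and 1.19% of all loci were called in those directions. AP4B1, ATP6V0A2, GGA3, AP3M1, HGSNAT, PIKFYVE and SEC22B, all listed as lower, then had log2 fold changes of 0.05 to 0.23, which remained below that median.

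After D3 the members listed as higher lay nearer to their D-3 levels. The members were chosen for their values at D3, so a later approach to D-3, and its difference between the members listed as higher and lower, is a description and nothing is read from it. Relative to each cow's D-3 level, their median log2 change was 0.60 on D3, 0.24 on D7 and 0.38 on D14. On D25 it was 0.18, and 19 of 22 were still above D-3. The members listed as lower kept nearer to their D3 levels, with median changes of -0.54, -0.44, -0.45 and -0.37 on the same days, and 13 of 14 remained below D-3 at D25.

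**Figure D1:**
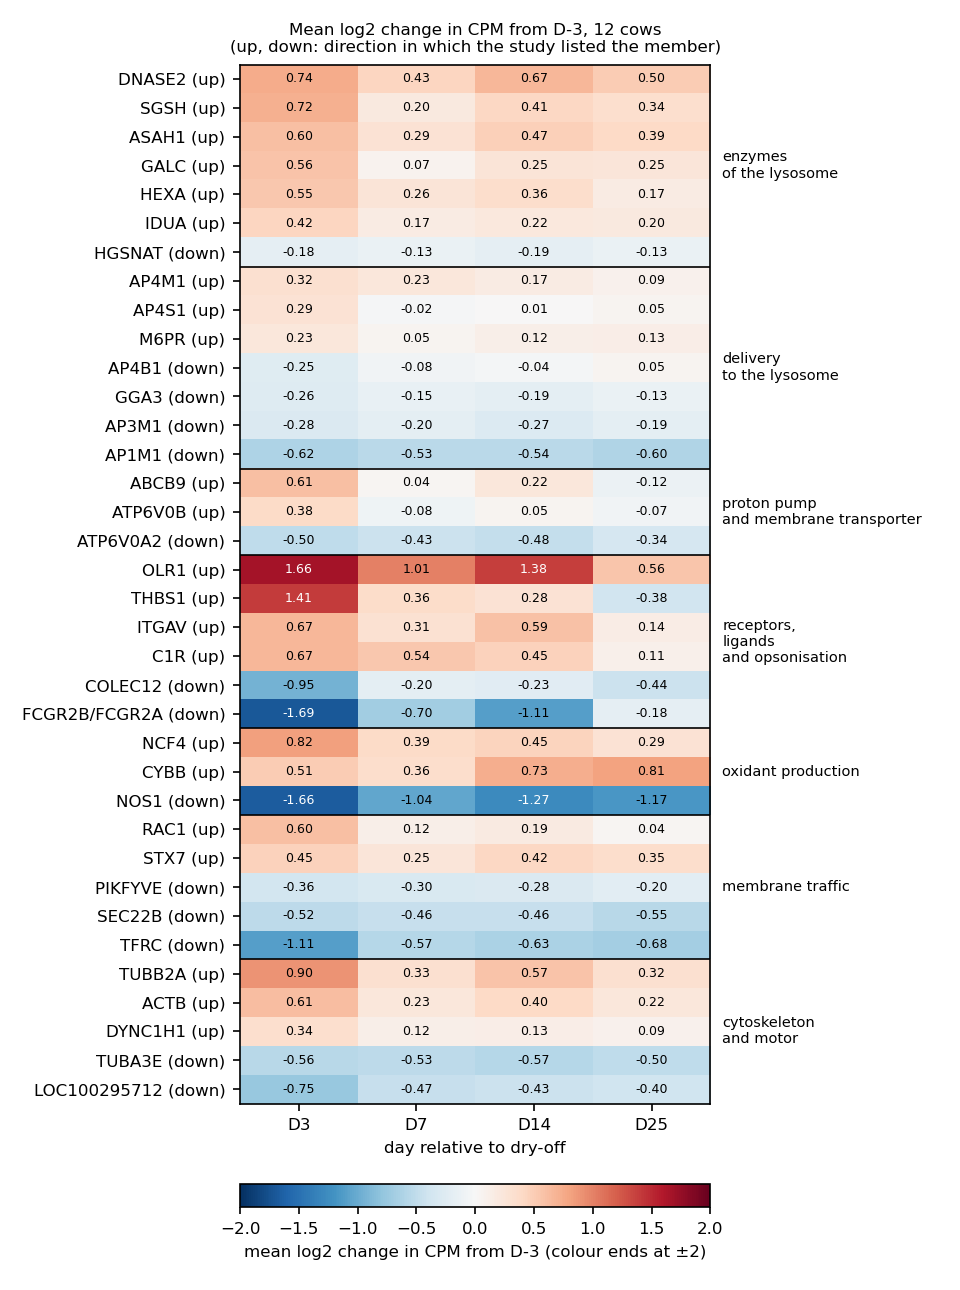
Mean log2 change in CPM from D-3 in 12 cows for the 36 tested members (rows, grouped by role, with the direction in which the study listed each) at D3, D7, D14 and D25 (columns, in days after dry-off); red is higher and blue lower than at D-3, and the number in each cell is the change. Most red cells are deepest at D3 (medians of 0.60, 0.24, 0.38 and 0.18 for members listed as higher), whereas the blue cells vary less from D3 to D25 (medians of -0.54, -0.44, -0.45 and -0.37).

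Among 7 enzymes of the lysosome, 6 were higher at D3 than at D-3. SGSH, the sulfamidase that removes N-linked sulfate from heparan sulfate, had levels of 19.2, 28.5 and 55.2 CPM (lowest, median and highest of 12 libraries) at D-3 and of 28.2, 47.6 and 80.3 CPM at D3. DNASE2, the acid endonuclease that digests DNA of engulfed cells, went from 21.2, 30.9 and 75.1 CPM to 37.2, 51.9 and 86.8 CPM. In both genes the ranges overlapped between days, and cow 8513 (HT) was the highest D-3 library. The log2 fold change was 0.75 for SGSH (SE 0.17, higher in 10 of 12 cows) and 0.70 for DNASE2 (SE 0.17, higher in 11 of 12 cows). ASAH1 (acid ceramidase), HEXA (the alpha chain of beta-hexosaminidase A), GALC (galactosylceramidase) and IDUA (alpha-L-iduronidase) had log2 fold changes of 0.43 to 0.66. ASAH1 had levels of 58.9, 101 and 149 CPM at D-3 and of 113, 132 and 191 CPM at D3. HEXA had levels of 35.9, 43.9 and 86.6 CPM at D-3 and of 41.9, 53.9 and 142 CPM at D3. In ASAH1 the lowest library differed most between the days, and in HEXA the highest one. HGSNAT, the membrane acetyltransferase of the same heparan sulfate pathway as SGSH and IDUA, was the enzyme listed as lower, with -0.17 (SE 0.07). At D25 DNASE2 was still 0.50 above its D-3 level on the log2 scale, ASAH1 0.39 and SGSH 0.34.

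The 7 members grouped here under delivery to the lysosome, the chains of AP-4 among them, were listed in both directions. AP1M1, the medium chain of AP-1, which sorts cargo between the Golgi and endosomes, had D-3 levels of 36.2, 63.7 and 151 CPM (lowest, median and highest) and D3 levels of 34.5, 46.2 and 63.5 CPM. At D-3 the 5 libraries rich in milk protein counts lay between 103 and 151 CPM and the other 7 between 36.2 and 64.3 CPM. From D3 to D25 the medians of AP1M1 stayed between 46.2 and 51.5 CPM. AP4S1, the small chain of AP-4, was 4.53 CPM at D-3 and 5.26 CPM at D3 (medians), with overlapping ranges. The chains of AP-4 did not move together, with log2 fold changes at D3 vs. D-3 of 0.32 for AP4M1 (SE 0.13), 0.33 for AP4S1 (SE 0.12) and -0.24 for AP4B1 (SE 0.08). M6PR, a receptor for mannose 6-phosphate tags on new enzymes, had 0.24 (SE 0.08). GGA3, a Golgi adaptor, and AP3M1, the medium chain of AP-3, had -0.27 (SE 0.09) and -0.29 (SE 0.11).

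The proton pump was represented by 2 subunits of its membrane sector, which were listed in opposite directions. ATP6V0B had levels of 49.6, 66.3 and 108 CPM at D-3 and of 52.2, 68.8 and 175 CPM at D3, so that the median differed little and the highest library more. ATP6V0A2 had levels of 68.9, 90.7 and 196 CPM at D-3 and of 48.9, 77.3 and 88.3 CPM at D3, with the 5 D-3 libraries rich in milk protein counts (139 to 196 CPM) above every D3 library. The log2 fold changes were 0.47 (SE 0.15) and -0.60 (SE 0.14). ABCB9, a peptide transporter of the lysosomal membrane, was the lowest of the 3 in CPM, with a median of 4.37 CPM at D-3, 6.51 CPM at D3 and 3.44 CPM at D25. Its log2 fold change at D3 was 0.74 (SE 0.23, higher in 8 of 12 cows).

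Of the 6 receptors, ligands and opsonins, 4 were higher and 2 were lower at D3. OLR1, a scavenger receptor for oxidised lipoproteins, had levels of 1.63, 4.29 and 19.5 CPM at D-3 and of 8.69, 16.3 and 32.9 CPM at D3. It was higher in 11 of 12 cows, with a log2 fold change of 1.36 (SE 0.39). After D3 its lowest libraries lay below the D3 range, with medians of 10.5, 15.4 and 5.92 CPM at D7, D14 and D25. THBS1, thrombospondin, a matrix protein that bridges dying cells to the integrin ITGAV and to CD36, had levels of 101, 180 and 1059 CPM at D-3, of 160, 795 and 2328 CPM at D3 and of 129, 196 and 270 CPM at D25. Its log2 fold change was 1.33 (SE 0.37) at D3, and by D25 it was at a mean change of -0.38 from D-3. ITGAV (0.74, SE 0.22) and C1R, a protease that starts the classical complement cascade (0.62, SE 0.19), had smaller log2 fold changes. COLEC12, a scavenger receptor with a collectin domain, had levels of 30.7, 64.5 and 199 CPM at D-3, of 29.6, 41.4 and 62.5 CPM at D3 and of 50.4, 70.4 and 111 CPM at D7. From D3 to D7 it was higher in 12 of 12 cows.

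For oxidant production, NCF4 (p40-phox) and CYBB (gp91-phox), both parts of the phagocyte NADPH oxidase, were listed as higher and NOS1 (neuronal nitric oxide synthase) and MPO (myeloperoxidase) as lower. NCF4 had levels of 4.82, 7.70 and 19.2 CPM at D-3 and of 8.85, 11.2 and 34.7 CPM at D3, higher in 11 of 12 cows with a log2 fold change of 0.85 (SE 0.23). CYBB did not return to its D-3 level, with medians of 112, 134 (D3), 138 (D7), 171 (D14) and 168 CPM (D25). NOS1 showed the largest fold among the 36 tested members, with levels of 0.26, 1.77 and 11.5 CPM at D-3 and of 0.19, 0.79 and 1.17 CPM at D3. The log2 fold change of NOS1 was -2.50 (SE 0.46, lower in 11 of 12 cows). MPO did not pass the filter on low counts (1 CPM in 6 samples). Its counts ran from 0 to 71, and its level of 7.15 CPM in the D-3 library of cow 8564 was its highest.

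Membrane traffic held RAC1, the small GTPase that drives actin around a particle and assembles the NADPH oxidase, and STX7, a SNARE of late endosomes, both listed as higher. RAC1 had levels of 77.4, 103 and 158 CPM at D-3, of 101, 145 and 282 CPM at D3 and of 94.3, 114 and 139 CPM at D7. Its log2 fold change at D3 was 0.64 (SE 0.11), and that of STX7 was 0.40 (SE 0.11), with STX7 levels of 35.2, 70.4 and 94.3 CPM at D-3 and of 71.5, 92.1 and 105 CPM at D3. Both genes were higher in at least 10 of 12 cows. TFRC, the transferrin receptor of recycling endosomes, had levels of 31.8, 61.3 and 452 CPM at D-3 and of 20.2, 37.8 and 56.0 CPM at D3. Its log2 fold change was -1.65 (SE 0.31). The 5 D-3 libraries rich in milk protein counts ran from 57.8 to 452 CPM and the other 7 from 31.8 to 86.3 CPM. SEC22B, a SNARE of the endoplasmic reticulum that is found on phagosomes, had levels of 95.8, 142 and 389 CPM at D-3 and of 89.4, 121 and 170 CPM at D3. PIKFYVE, a lipid kinase of endosome maturation, had -0.37 (SE 0.15). The TFRC locus joins 2 annotated genes, so its counts may hold reads of a neighbour.

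In the cytoskeletal group, ACTB (beta-actin), DYNC1H1 (a chain of dynein, which moves vesicles along microtubules) and the tubulin TUBB2A were listed as higher, and the alpha-tubulins TUBA3E and LOC100295712 as lower. TUBB2A had levels of 7.76, 20.9 and 46.0 CPM at D-3 and of 19.7, 37.1 and 81.8 CPM at D3, with a log2 fold change of 0.90 (SE 0.22). ACTB had levels of 812, 1130 and 1929 CPM at D-3 and of 1139, 1759 and 3832 CPM at D3, with 0.65 (SE 0.15). DYNC1H1 had 0.33 (SE 0.13) and was higher in 11 of 12 cows. LOC100295712 had levels of 1.76, 3.30 and 6.67 CPM at D-3 and of 0.87, 2.31 and 3.13 CPM at D3, with -0.78 (SE 0.19). Alpha-tubulin genes are nearly identical in their coding sequence, so the split of uniquely mapped reads between them is uncertain. The TUBA3E locus also joins 2 annotated genes.

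**Figure D2:**
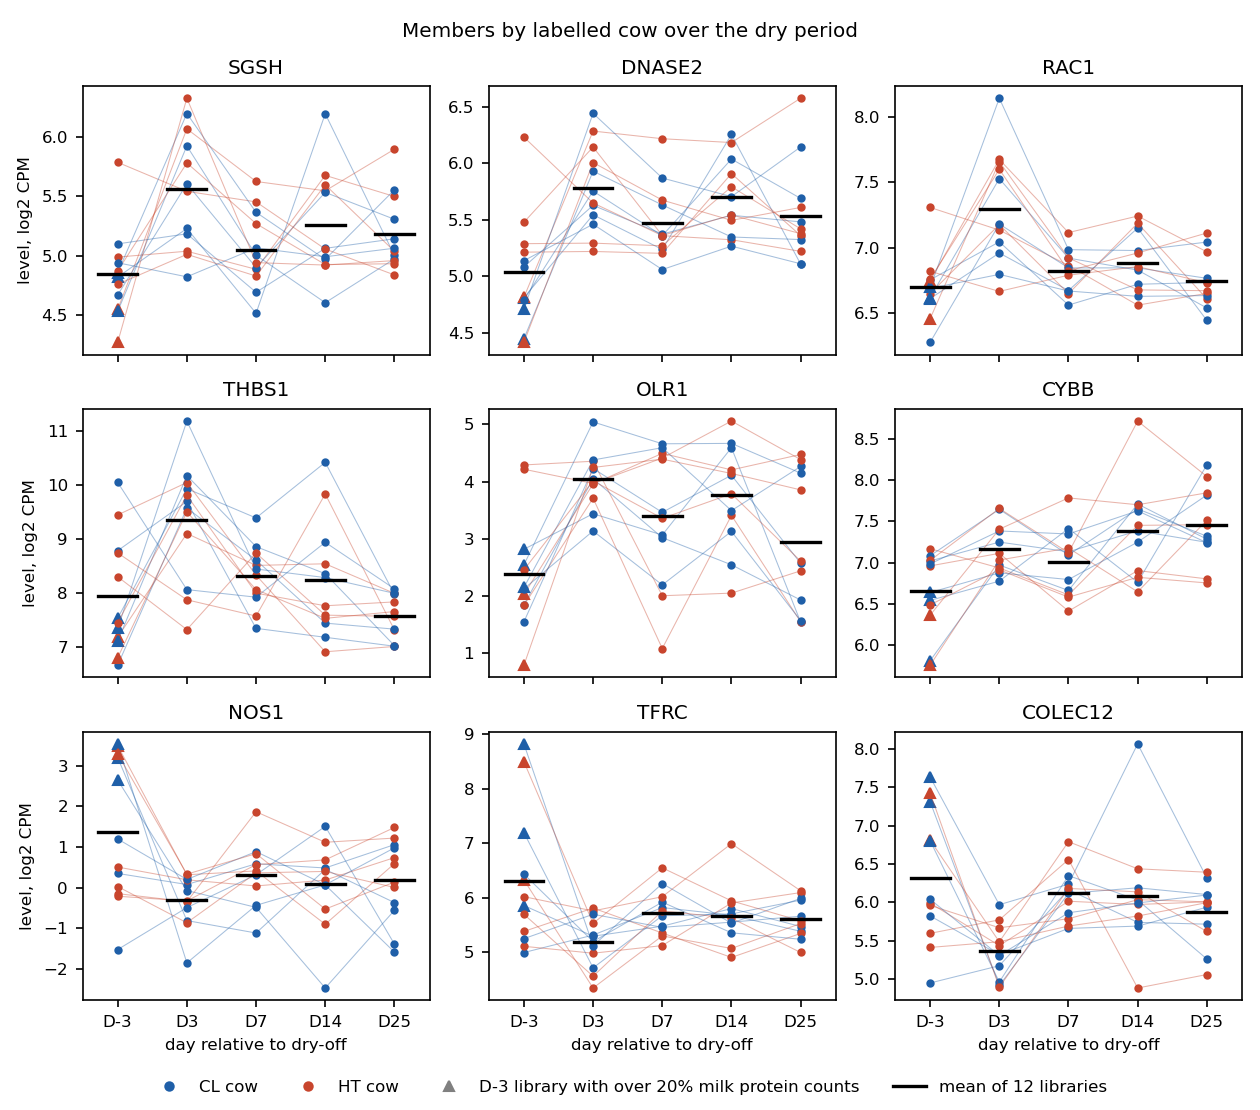
Level in log2 CPM (vertical axes) of 9 members by labelled cow over the 5 sampling days; blue is CL, red is HT, triangles are the 5 D-3 libraries with over 20% milk protein counts, thin lines join the libraries of 1 labelled cow and black bars are means of 12 libraries. The 5 triangles lie above the other 7 D-3 libraries for NOS1 and COLEC12, and THBS1 and RAC1 peak at D3; the lines of cows 8513 and 8660 between D7 and D14 follow labels that the data contradict.

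The difference between D-3 and D3 was unevenly spread over cows. In the 5 cows whose D-3 library was rich in milk protein counts, the 22 members listed as higher had a median within-cow log2 change of 1.12 and the 14 listed as lower one of -1.20. In the other 7 cows these medians were 0.11 and -0.11. All 36 tested members had a larger median change in size in the 5 cows, as did 79.7% of all loci. Each of the 5 cows moved in the listed direction for 21 of 22 members listed as higher, with ATP6V0B as the exception, and for 14 of 14 listed as lower. No member moved that way in all 7 others, a stricter count than all of 5. In at least 6 of these 7 cows, 7 members listed as higher and 2 listed as lower did. The median of the 7 cows went the listed way for 20 of 22 and 12 of 14. These counts have no share over all loci beside them, so nothing is read from them. At D-3 the 5 libraries lay above the other 7 without overlap for ATP6V0A2, AP1M1, NOS1, COLEC12, SEC22B and TUBA3E, and below them for ASAH1 and STX7. Over all loci, 10.5% lay above and 8.31% below without overlap. NOS1 was at 6.17 to 11.5 CPM in the 5 and at 0.26 to 2.21 CPM in the 7, ASAH1 at 58.9 to 73.4 CPM and 95.02 to 149.5 CPM, and STX7 at 35.2 to 58.5 CPM and 60.8 to 94.3 CPM. The split was made after the values were seen and is given without a test.

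Without these 5 cows, 0 members and 0 of all loci were called for D3 vs. D-3 in edgeR (1 member and 762 loci had an unadjusted p under 0.05), in a fit on 7 cows in place of 12. The medians over the members were then 0.24 for those listed as higher, of which 20 of 22 had a positive value, and -0.14 for those listed as lower, with 14 of 14 negative. The TMM factors of the D-3 libraries went down to 0.30. With TMM factors computed without CSN1S1, CSN2 and LALBA the calls for D3 vs. D-3 were 19 higher and 11 lower, where 6.06% and 9.19% of all loci were called. Other milk protein genes, CSN1S2 and CSN3 among them, could not be paired and were not taken out. The part of milk secretion in the members' change was not tested.

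**Figure D3:**
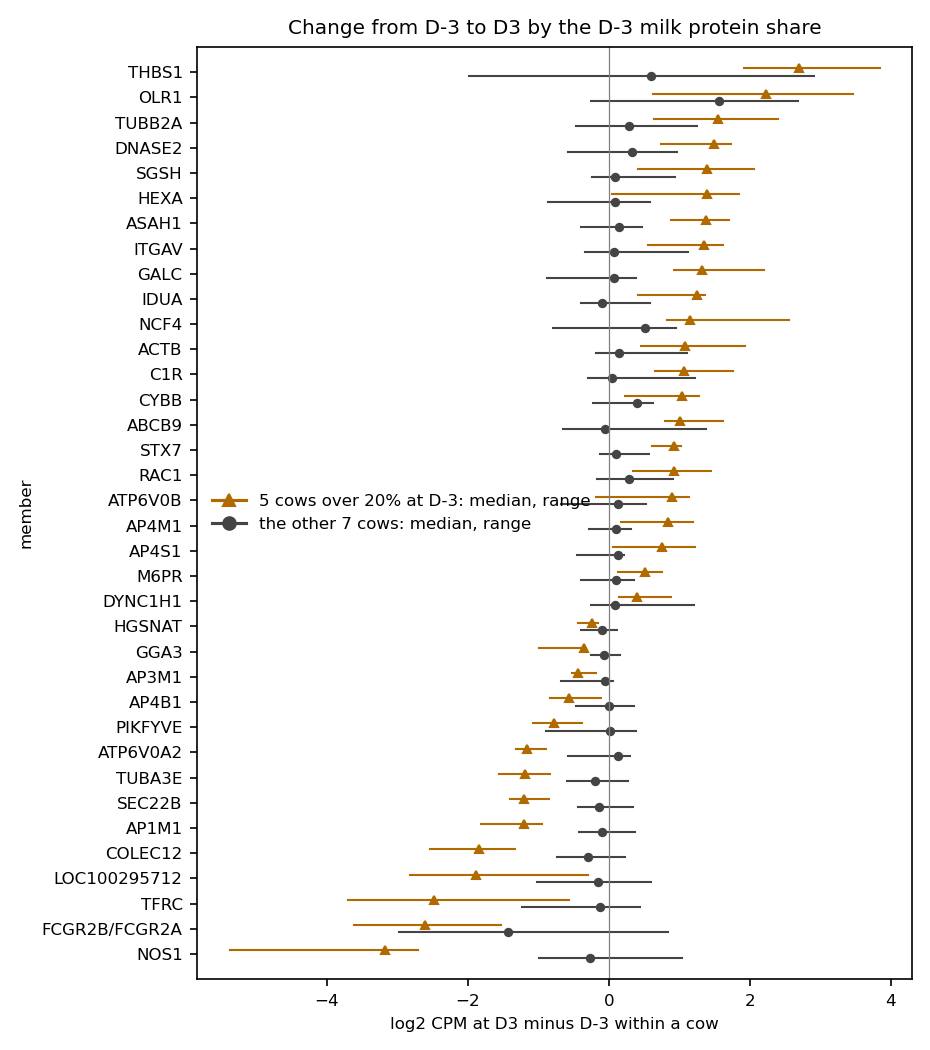
Within-cow log2 change in CPM from D-3 to D3 (horizontal axis) for the 36 tested members (vertical axis); brown triangles and lines are the median and range of the 5 cows with over 20% milk protein counts at D-3, and gray points and lines those of the other 7 cows. Brown medians (1.12 and -1.20 over the members listed as higher and lower) lie farther from 0 than gray ones (0.11 and -0.11).

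The spread between cows differed between D-3 and D3 in some members, chosen here after their values were seen. For TFRC, SEC22B, AP1M1 and NOS1 the SD of log2 CPM over the 12 cows was 1.27, 0.85, 0.82 and 1.77 at D-3 and 0.48, 0.31, 0.33 and 0.64 at D3. For RAC1, ATP6V0B, GALC and HEXA it was 0.24, 0.33, 0.38 and 0.33 at D-3 and 0.43, 0.62, 0.64 and 0.61 at D3. THBS1, TUBB2A and NCF4 had like SDs on both days (1.09, 0.74 and 0.63 at D-3, and 1.10, 0.71 and 0.68 at D3). Each library was summarised by the median over the 22 members listed as higher, each as log2 CPM minus its own mean over D3 to D25. At D3 cows 8564, 8713, 8647, 8541 and 8660 had medians of 0.83, 0.67, 0.65, 0.62 and 0.49, and the other 7 ran from -0.26 to 0.20. Of these 5 cows, 4 were also among the milk-rich ones at D-3, and cow 7965, the remaining one, had a D3 median of 0.03. The same 5 D3 libraries held the highest summed levels of KRT7 and KRT19, from 2148 to 5221 CPM, where the other 7 ran from 733 to 1621 CPM. They also held the highest levels of MYH2, from 8.14 to 16.7 CPM against 0.45 to 4.65 CPM. Milk protein genes took 3.66 to 7.45% of the counts in 4 of them, and at most 1.01% in cow 8660 and the other 7. The macrophage sum in these 5 libraries was 55.0 to 118 CPM and in the other 7 it was 59.3 to 111 CPM, so that the ranges overlapped. The sum of the myoepithelial markers KRT5, ACTA2, MYH11 and CNN1 also overlapped, with 1610 to 3223 CPM in the 5 and 887 to 3440 CPM in the other 7. At D7 the library medians narrowed to between -0.40 and 0.21. Whether the epithelial, muscle or milk content of the biopsies had a part in these values was not tested.

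**Figure D4:**
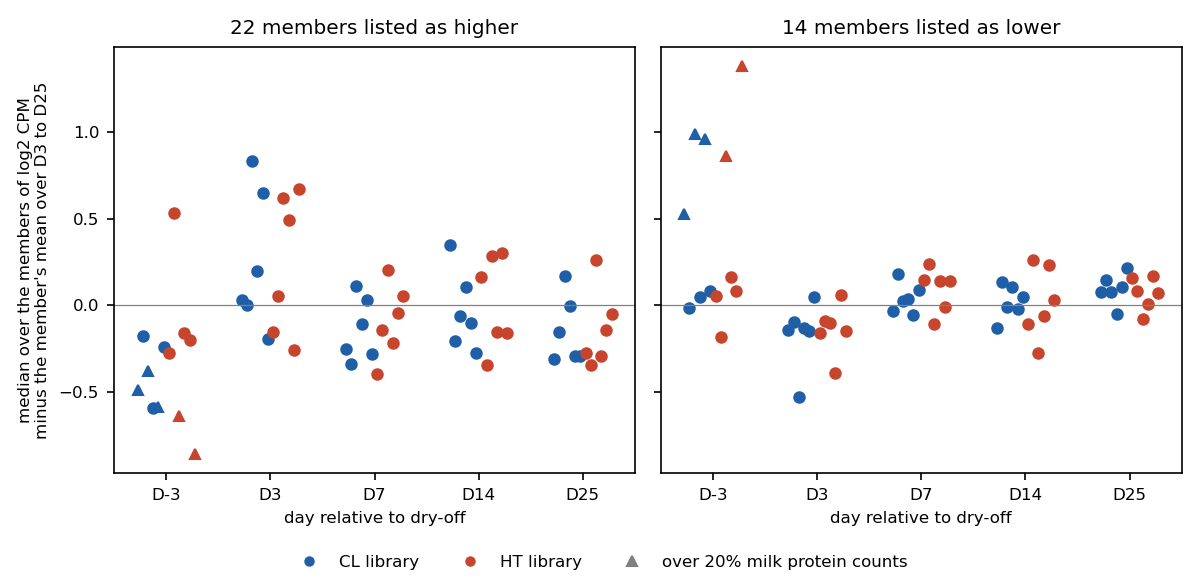
Median over the members of log2 CPM minus each member's mean over D3 to D25 (vertical axes) in each of the 60 libraries by day, for 22 members listed as higher (left) and 14 listed as lower (right); blue is CL, red is HT and triangles are libraries with over 20% milk protein counts. At D-3 the 5 triangles lie between 0.53 and 1.38 on the right, above the other 7 (-0.18 to 0.16), and at D3 5 libraries lie at 0.49 or more on the left.

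Between D3 and D7 the direction turned for the whole set in the fitted values. All 22 members listed as higher had a negative log2 fold change for D7 vs. D3 (median -0.36) and all 14 listed as lower a positive one (median 0.09). This comparison shares the D3 libraries with the one that chose the members, so a high or low D3 value enters both with opposite signs and nothing is read from the turn. SGSH, ATP6V0B, THBS1 and RAC1 were called lower at D7 and 0 members were called higher, beside 2.3% and 0.625% of all loci. With cow as a block, which pairs the libraries of a cow, 7 were called lower and 1, COLEC12, higher, where 3.89% and 2.09% of all loci were called. Scaling by library size alone left 0 calls. Without the 5 cows rich in milk protein at D-3, 0 members and 0 of all loci were called in edgeR, with 8 members and 1442 loci at an unadjusted p under 0.05. The summed level of the luminal keratins had a median of 1580 CPM at D3 and of 936 CPM at D7, and that of 4 myoepithelial markers (KRT5, ACTA2, MYH11 and CNN1) medians of 2255 and 1117 CPM. MYH2 was called lower at D7 (log2 fold change -4.46), and the adipocyte marker ADIPOQ had 1.33, which was called with cow as a block (FDR 0.0414 in edgeR) and not without it (0.0895). The part of these markers was not tested.

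From D7 on no member passed an FDR of 5%. The D7 libraries did not enter D3 vs. D-3 but did enter D7 vs. D3, which the held gene tables also favour, so D14 vs. D7 and D25 vs. D7 are not free of the choice of members. For D14 vs. D7, 0 members were called (background 0%), with 1 at an unadjusted p under 0.05 in edgeR and in DESeq2. For D25 vs. D14, 0 were called (background 0.0612%), with 3 at p under 0.05 by either tool, and 0 such members once the D14 library of cow 7965 was left out. For D25 vs. D7, 0 were called (background 0%), with 3 at p under 0.05 by either tool. Median log2 fold changes of the members listed as higher were 0.17, -0.13 and -0.02 in these comparisons, and -0.02, 0.06 and 0.02 for those listed as lower.

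The members with the smallest p for D25 vs. D7 in edgeR belong to the phagosome. C1R had levels of 118, 208 and 351 CPM at D7 and of 105, 146 and 225 CPM at D25, with a log2 fold change of -0.48 (SE 0.19, lower in 9 of 12 cows). CYBB had levels of 85.0, 138 and 220 CPM at D7 and of 108, 168 and 291 CPM at D25, with 0.46 (SE 0.18, higher in 11 of 12 cows). In both genes the ranges of the days overlapped. Their unadjusted p was 0.0132 and 0.0148 in edgeR, and their FDR over all loci 0.9999. THBS1, chosen here after its values were seen, had -0.80 (SE 0.37, lower in 11 of 12 cows) with an unadjusted p of 0.0333 in edgeR. Exact sign-flip tests on the 12 within-cow differences, which were two-sided and can go down to 0.000488, gave 0.00391 for C1R, 0.00146 for CYBB and 0.000977 for THBS1. MPO, which was not tested in edgeR for its low counts, gave 0.00195 in the same exact test (lower in 10 of 12 cows and equal in 2 that had no count on either day). These p values are unadjusted, the test was run for 37 members, and exchanging the labels of cows 8513 and 8660 at D25 left all 4 as they were. In the same sign-flip test OLR1 (0.0239), AP4M1 (0.0449), AP4B1 (0.0459), STX7 (0.0464) and ASAH1 (0.0488) were also under 0.05. Of these, AP4M1, AP4B1 and ASAH1 are listed under Lysosome, and STX7 had 0.0581 with the labels exchanged. The test was not run over all loci, so no background share stands beside these values. The macrophage sum also had a higher median at D25 (96.4 CPM) than at D7 (72.8 CPM), and the dependence of CYBB on macrophage content was not tested.

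Other genes of these pathways were taken from lists of 136 symbols that were not members, of which 20 could be paired. For D3 vs. D-3, 3 were called higher and 0 lower, where 6.03% and 9.04% of all loci were called in those directions. The 3 included ACP2, a lysosomal acid phosphatase (log2 fold change 0.41), and FUCA1, a fucosidase (0.46). A positive value was found in 19 of 20, with a median of 0.31, and the median over all loci was -0.01. For D7 vs. D3, 3 were called lower and 2 higher, where 2.3% and 0.625% of all loci were called. The lower ones included NPC1, the cholesterol exporter of the lysosome (-0.76), and STX12, an endosomal SNARE (-0.52). ACP5, the tartrate-resistant phosphatase of macrophages and osteoclasts (2.09), and the pump subunit ATP6V0D2 (2.84) were called higher. The edgeR FDR of ATP6V0D2 was 0.0482, and with cow as a block it was 0.0592 and no longer called. In the later comparisons 0 of the 20 were called (background 0.0612% for D25 vs. D14 and 0% for D14 vs. D7 and D25 vs. D7). These genes came from the same partly held gene tables, so their choice is not independent of the early contrasts.

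No member passed a threshold for a difference between HT and CL. In HT vs. CL, 0 of 36 members passed the less stringent threshold (unadjusted p of at most 0.005 with an absolute log2 fold change of at least 0.5) or an FDR of 5% on any of the 5 sampling days, and 0 had an unadjusted p under 0.05 on any of them in edgeR. Over all loci 0.0544% passed the less stringent threshold at D-3 and again at D14, 0.0204% at D3, 0.319% at D7 and 0.0408% at D25. With DESeq2 0 members passed it on any day.

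The smallest p at single days fell on a few members. NOS1 at D7 had levels of 0.38, 0.91 and 1.76 CPM (lowest, median and highest) in 6 CL cows and of 0.94, 1.32 and 3.56 CPM in 6 HT cows, with a log2 fold change of 0.75 (SE 0.42). At D25 its levels were 0.25, 0.64 and 2.00 CPM in CL and 0.92, 1.50 and 2.70 CPM in HT, with 0.79 (SE 0.51). The groups overlapped on both days. An exact two-sided permutation test of NOS1, which can go down to 0.00216 with 6 against 6 cows, gave p = 0.106 at D7 and p = 0.0823 at D25. THBS1 at D3 ran from 268 to 2328 CPM in CL (median 903) and from 160 to 1058 CPM in HT (median 638), with a log2 fold change of -0.81 (SE 0.50) and an exact permutation p of 0.184. AP1M1 at D7 had medians of 48.1 CPM in CL and 55.4 CPM in HT, with 0.24 (SE 0.14). PIKFYVE at D14 had medians of 57.4 and 47.7 CPM, with -0.26 (SE 0.18). COLEC12 at D14 had medians of 64.4 and 64.0 CPM, and its log2 fold change of -0.63 (SE 0.42) became 0.01 without cow 7965, whose D14 level was 268 CPM.

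Averaged over D3 to D25 with 1 value per cow, HT minus CL differed from 0 for none of the members at an FDR of 5% (0 called in limma, background 0%, with 0 at an unadjusted p under 0.05). The 95% interval lay within -0.5 to 0.5 on the log2 scale for 28 of 36 members, reached beyond 0.5 in size for 8 and beyond 1 for 2, NOS1 and the FCGR2B/FCGR2A locus. The median width of the intervals was 0.66. With each cow's D-3 value subtracted, 0 members were called, 6 intervals lay within -0.5 to 0.5 and the median width was 1.37. Once the D14 and D25 libraries of 8513 and 8660 swapped labels, 0 members were called, 0 had an unadjusted p under 0.05 and 28 intervals lay within -0.5 to 0.5. For SGSH the difference was 0.12 (interval -0.15 to 0.38), for DNASE2 0.05 (-0.31 to 0.41), for CYBB -0.06 (-0.44 to 0.32) and for NOS1 0.56 (-0.09 to 1.21). A difference of up to these bounds in either direction is not excluded by 6 cows per treatment. The interaction of treatment and time called 0 members (background 0%), with 0 at an unadjusted p under 0.05 in edgeR, and the smallest unadjusted p, 0.433, was that of COLEC12.

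**Figure D5:**
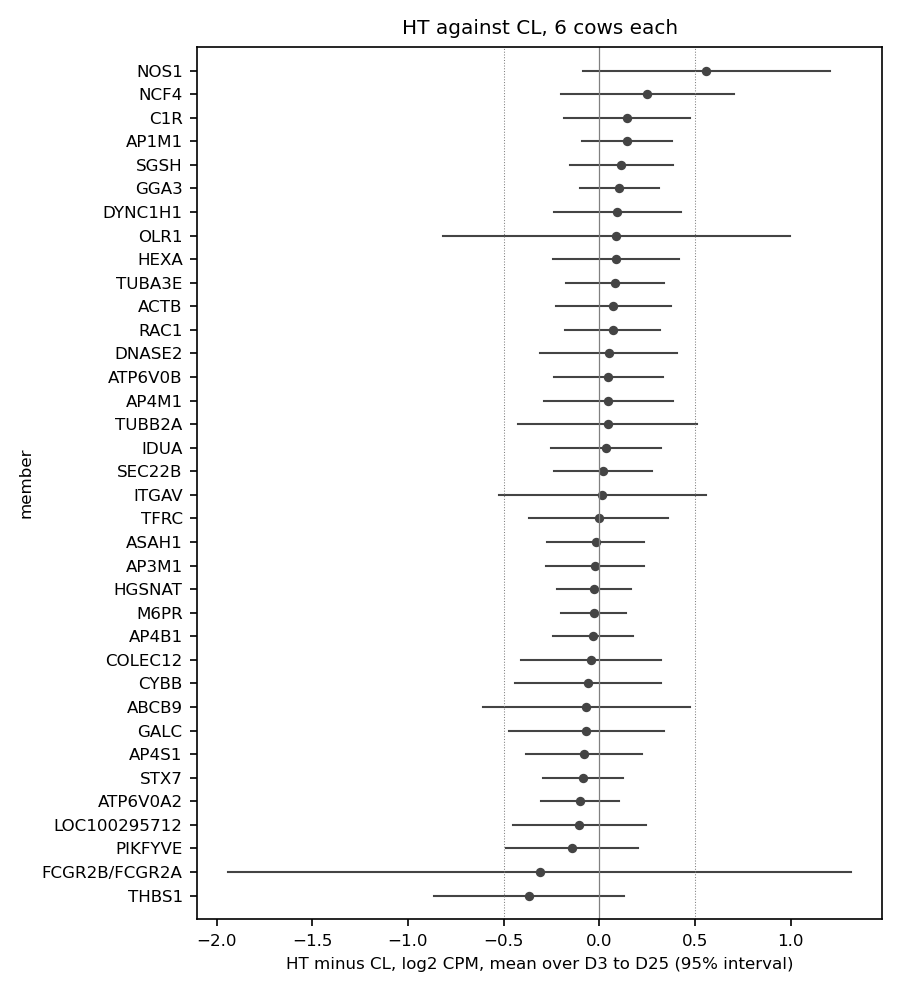
Difference HT minus CL in log2 CPM averaged over D3 to D25 (horizontal axis; points, with 95% intervals as lines) for the 36 tested members (vertical axis), 6 cows per treatment; dotted lines mark -0.5 and 0.5. All intervals include 0, 28 of 36 lie between the dotted lines, and those of NOS1 (-0.09 to 1.21) and FCGR2B/FCGR2A (-1.94 to 1.32) are wide.

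The FCGR2B/FCGR2A locus, which carries 2 receptors for the Fc part of IgG, was the tested member that varied most between cows from D3 to D25. At D-3 NOS1, TFRC and THBS1 had larger SDs. Its level ran from 57.9 CPM (cow 7965 at D14) to 8528 CPM (cow 8686 at D7), and the SD of its log2 CPM over 12 libraries was 1.06 at D-3 and 1.62 to 1.84 at D3 to D25. The median SD of the members on a day was 0.28 to 0.46, and that of all loci 0.32 to 0.47. Cow 8686 (CL) had levels of 5676, 6291, 8528, 4498 and 7793 CPM from D-3 to D25. Cow 8541 (HT) had 1264, 438.8, 359, 352 and 299 CPM on those days. The ranges of these 2 cows over the 5 days did not overlap. HT vs. CL at D3 had a log2 fold change of -1.06 (SE 0.84), which became 0.26 without cow 8686, and at D25 it was -1.04 (SE 0.73), with an exact permutation p of 0.340. Since 2 receptor genes share the locus, their reads cannot be told apart here. Its highest level, 8528 CPM, was above that of ACTB (3832 CPM). The locus may also hold reads of other genes, which could not be checked, so its level is not read as that of the receptors. Whether alleles of the cows had a part in the spread was not tested.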

How the data were processed

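Counts per locus of all 60 samples were used as the authors deposited them: whole reads per XLOC locus, 1 library per sample, 25223 distinct loci (26073 entries, a locus with several ENSEMBL genes being entered once for each). The study's methods and processing notes give trimming with Trim Galore 0.4.1, mapping with TopHat2 2.0.13, transcript assembly with Cufflinks 2.2.1 and counting of uniquely mapped reads with htseq-count. The methods name bosTau7 and the labels UMD3.1 as the genome build, so no coordinates are given. The members and the lists were chosen with earlier results of these data known.

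Loci were tested if 6 or more samples had 1 CPM or more (14714, including 36 members). Time was tested across all samples, and HT vs. CL within each day, with TMM scaling and quasi-likelihood F-tests in edgeR 4.0.16 (R 4.3.3). The means over D3 to D25 per cow were compared in limma 3.58.1 on log2 CPM (prior count 2). FDR is the Benjamini-Hochberg value over all loci tested. Single members were tested by exact enumeration (4096 sign changes, 924 choices of cows). The fits for D25 vs. D7, HT vs. CL at D7, the mean over D3 to D25 and the interaction were run on simulated counts. The other fits were not. Those counts held no cow effect, so they do not bear on the pairing of libraries. Alternatives were other scalings and filters, DESeq2 1.42.0, cow as a block, fits on 2 time points and leaving out each cow; those that leave out the milk-rich cows or the D14 library of cow 7965, use tagwise dispersions or exchange 2 cow labels were chosen after seeing the data. Members with values were the 2 with the largest change of each role at D3 vs. D-3, and otherwise the 2 with the smallest p of a comparison. Others named with values were chosen after their values were seen.

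Cow numbers in the labels pair the libraries of a cow. Deviations from the day means correlated at a mean r of 0.301 over 120 pairs of libraries of the same cow, and of -0.026 over 1320 pairs of different cows, under the labels as given. Cows are separate animals, so p values of HT vs. CL on a day or in the means per cow reflect the spread between cows. The main fits of time and of the interaction had no cow term and took the 60 libraries of 12 cows as independent. Their p values ignore the pairing and mix the spread between cows with that between biopsies of a cow. Cow as a block and the sign-flip tests pair the libraries of a cow. The paper states that the sampled part of the udder alternated between days, so changes within a cow also hold differences between sites. The counting precision at a given level follows the totals of 20525083 to 26183990 counts times the TMM factors. This product was 7348468 to 10374588 in the 5 milk-rich D-3 libraries and 18950353 to 30520722 in all others. Some genes of the lists are not reported here by name. Columns of the study's own fold changes and p values were not used.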

Additional observations from a re-analysis of the deposited data

Results flagged for a closer look

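COLEC12 in the D14 library of cow 7965 (CL) was at 268.1 CPM, and the nearest of the other 5 CL cows at 72.8 CPM. The gap took 0.79 of the group's range on the log2 scale, above the 95% critical value of 0.625 for 6 samples. It was the 1 value flagged as far from its group among 16 groups of 6 cows examined, and chance flags about 1 group in 20. The same library had a KRT7 and KRT19 sum of 6.19 CPM and a macrophage marker sum (MSR1 and AIF1) of 252 CPM, the lowest and the highest at D14. The part of tissue composition in the COLEC12 value was not tested.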

How the results depend on the processing

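The count of members called for D3 vs. D-3 (29) became 12 in a fit on the 2 time points alone and 0 without the 5 cows rich in milk protein at D-3, and with 1 cow less at a time it was 17 to 31 (19 without 8647, 17 without 8713). For D7 vs. D3 the count of 4 became 0 with library size only, 2 with no filter on low counts, 7 with DESeq2, 7 with tagwise dispersions and 0 without those 5 cows, and ran from 1 to 5 without single cows (1 without each of 8541, 8564, 8647 and 8713, 2 without each of 8060, 8314, 8603 and 8660). Over all loci the calls for D3 vs. D-3 were 2217, 845 on the 2 time points alone, 0 without the 5 cows and 1230 to 2557 without single cows (1230 without 8713, 1255 without 8564, 1258 without 8647, 1388 without 8541). For D7 vs. D3 they were 430, 36 with library size only, 709 with DESeq2, 648 with tagwise dispersions and 49 to 609 without single cows (49 without 8564, 126 without 8541, 127 without 8647, 137 without 8713, 247 to 290 without 8060, 8314, 8603 or 8660). With cow as a replicate block, D7 vs. D3 had 8 member calls and 881 over all loci, D3 vs. D-3 had 36 and 3164, and D25 vs. D14 had 0 over all loci in place of 9, while no other count of member calls changed. Counts of 0 members past the thresholds in the later time comparisons, HT vs. CL, its mean and the interaction stayed 0 under each alternative run. Members at an unadjusted p under 0.05 for HT vs. CL, 0 before, became 3 at D-3 without 8713, 2 in the mean without 8060 (THBS1 and NOS1) and 1 in 10 other runs. In all, 213 of 231 counts under an alternative were within 1.5 times the main count. The other 18 were all for D3 vs. D-3 or D7 vs. D3. Main counts of the remaining results were 0 and stayed 0, so the 213 do not show that calls in those early comparisons are stable. With library size only the log2 fold changes of 7 of 14 members listed as lower turned positive for D3 vs. D-3, ATP6V0A2 (0.062) and SEC22B (0.047) among them, as the median of all loci moved to 0.349. Leaving out 1 cow at a time, HT vs. CL for FCGR2B/FCGR2A at D3 ran from -1.398 (without 8668) to 0.256 (without 8686), and for COLEC12 at D14 from -0.762 (without 8060) to 0.008 (without 7965). The causes were not tested. Library totals were similar, but the 5 D-3 libraries rich in milk protein counts had TMM factors of 0.30 to 0.42 (0.80 to 1.21 in the others), so a given level rests on fewer counts there, and MPO and NOS1 rest on the fewest.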
